A study of Mus musculus with 19 samples.

Results

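The glycolytic enzyme isoforms described here are 9 genes: *Aldoa* and *Aldoc* (aldolases), *Pfkl*, *Pfkm* and *Pfkp* (phosphofructokinases), *Eno1*, *Eno2* and *Eno3* (enolases) and *Pkm* (pyruvate kinase). They were picked by symbol and not by a cutoff on measured level, though with earlier results of these data known. All 9 were found in each of the 3 deposited expression tables, which together name 55740 genes. The symbol *Aldoa* also belongs to a second Ensembl gene, ENSMUSG00000114515, which lay at 0 to 0.432 FPKM in the libraries that list it and was kept apart. Levels are FPKM, that is fragments counted relative to transcript length and to the mapped total of the library, so levels of different genes are already per length.

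Glycolysis splits glucose into pyruvate in a fixed series of steps, and several of these steps can be carried out by more than one gene product. Phosphofructokinase commits the sugar to the pathway, aldolase splits the resulting 6-carbon bisphosphate, enolase makes phosphoenolpyruvate, and pyruvate kinase turns that into pyruvate. Classical enzymology names many of the isoforms after a tissue: muscle, liver and platelet phosphofructokinase (*Pfkm*, *Pfkl*, *Pfkp*), muscle and brain aldolase (*Aldoa*, *Aldoc*), and the ubiquitous, neuronal and muscle enolases (*Eno1*, *Eno2*, *Eno3*).

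RNA-seq had been run on 19 mouse libraries. A set of 7 covered C57BL/6J wild-type (WT) mice, with 1 library and thus no replicate for each of brain, small intestine, liver, heart, tibialis anterior (a leg muscle), brown fat and white fat. The other 12 came from male mice, 5 months old and fed chow, that had been held at 8 °C for 1 week: 3 WT and 3 MCK-Musclin libraries from inguinal white adipose tissue (iWAT) and 3 and 3 from brown adipose tissue (BAT). All animals in the cold comparison, controls included, had therefore been cold-exposed. MCK-Musclin mice carry the coding sequence of Musclin (gene *Ostn*), a peptide secreted by muscle, under the muscle creatine kinase promoter, on a C57BL/6J background; several founder lines were made, and which one was sequenced is not given in the sources used here. Age and fat depot of the white adipose library in the tissue set are likewise not given. The study's reporting summary states that RNA-seq used RNA from biologically independent animals within each group. The labels do not name the animal of a library, so whether iWAT and BAT libraries share animals is unknown. Here p-values measure the spread between these libraries.

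*Ostn*, the transgene's own symbol, was at 0 in the 3 WT BAT libraries and at 37.9, 31.6 and 30.3 FPKM in the MCK-Musclin ones. In iWAT it was at 0, 0 and 0.225 FPKM in WT and at 0, 5.17 and 4.21 FPKM in MCK-Musclin, so MCK-Musclin library 1 could not be told from WT by this gene. Relative depth, read from the smallest FPKM steps, spanned 0.918 to 1.05 of the heart library over the other tissues and 0.890 to 1.11 of the first WT library in BAT; it could not be read for iWAT, and absolute depth is unknown. Genes of the mitochondrial genome took 13.3% (white adipose) to 53.8% (brown adipose) of summed FPKM over the 7 tissues, so some tissue orders were also examined after rescaling. The iWAT table holds none of those genes. Each tissue carried its defining markers; the summed FPKM of 15 fast skeletal muscle genes, which include *Acta1*, *Ckm* and *Myh4*, was 147367 in tibialis anterior, but also 407 in white and 598 in brown adipose.

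The members of a family differ at many coding bases. Over aligned bases, coding identity in the GENCODE vM21 transcripts was 77.1% between *Aldoa* and *Aldoc*, 68.8 to 71.7% among the 3 phosphofructokinases and 75.4 to 77.8% among *Eno1*, *Eno2* and *Eno3*. The following 60 coding bases (1228 to 1287, counted from the start codon) are the stretch, in steps of 3 bases, where both other enolases differ most from *Eno1*; capitals mark bases that differ from *Eno1*, 22 in *Eno2* and 23 in *Eno3*.
Eno1: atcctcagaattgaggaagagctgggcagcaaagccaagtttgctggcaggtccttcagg
Eno2: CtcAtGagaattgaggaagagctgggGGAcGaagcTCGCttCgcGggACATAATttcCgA
Eno3: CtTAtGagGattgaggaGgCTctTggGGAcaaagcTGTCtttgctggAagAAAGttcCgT
No stretch of 100 bases in the longest coding transcripts of *Aldoa*, *Aldoc*, *Pfkl*, *Pfkm*, *Pfkp*, *Eno2* or *Eno3* recurred in a transcript of another gene. *Eno1* was different: 59.0% of its 100-base stretches recurred elsewhere, most of them in *Eno1b* (58.6%), a near-copy whose coding sequence is 99.4% identical. *Pkm* shared 9.82% of its stretches, mainly with Gm6560 (6.73%) and with the overlapping same-strand gene Gm49759 (3.00%), and its M1 and M2 splice forms are counted together here. FPKM of *Eno1* and, less so, *Pkm* can thus depend on how shared reads were divided.

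The 3 enolase genes sit on separate chromosomes of GRCm38: *Eno1* at chr4:150236721-150248879 on the plus strand, *Eno2* at chr6:124760053-124769673 on the minus strand and *Eno3* at chr11:70657202-70662513 on the plus strand. Their upstream regions are printed because each of these isoforms leads in different tissues. Each is the 250 bases before a RefSeq start (GRCm38.p6), written 5′ to 3′ on the gene's strand; for *Eno1* it is the most downstream of 3 annotated starts (chr4:150236974-150237223), for *Eno2* chr6:124769674-124769923 and for *Eno3* chr11:70656926-70657175. Capitals mark any match, on either strand, to CACGTG, to ACGTG (which lies inside CACGTG), to CAGCTG, to TATAAA, to GGGCGG or to the MEF2 motif.
Eno1: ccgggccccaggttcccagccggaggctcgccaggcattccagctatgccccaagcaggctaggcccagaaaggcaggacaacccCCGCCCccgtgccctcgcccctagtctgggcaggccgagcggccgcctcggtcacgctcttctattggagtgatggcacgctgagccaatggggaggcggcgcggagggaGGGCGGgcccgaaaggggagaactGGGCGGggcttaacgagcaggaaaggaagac
Eno2: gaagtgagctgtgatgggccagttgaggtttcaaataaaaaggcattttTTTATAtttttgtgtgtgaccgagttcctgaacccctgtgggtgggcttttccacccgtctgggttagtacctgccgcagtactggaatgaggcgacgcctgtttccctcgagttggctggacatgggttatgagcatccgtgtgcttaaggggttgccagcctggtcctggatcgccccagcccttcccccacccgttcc
Eno3: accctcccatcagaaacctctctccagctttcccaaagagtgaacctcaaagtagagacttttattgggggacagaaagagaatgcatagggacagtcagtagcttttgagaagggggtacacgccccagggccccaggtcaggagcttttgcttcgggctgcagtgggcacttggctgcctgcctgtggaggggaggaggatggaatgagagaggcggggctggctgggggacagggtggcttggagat
*Eno1* held 3 GGGCGG matches, a motif found in 32.7% of all 32851 windows of this length. *Eno2* held 1 TATAAA, found in 12.4% of windows, 201 bases before the start, and *Eno3* held none of the 6 motifs. Over the 18 windows of the 9 genes, GGGCGG occurred in 7, from 5 genes, and ACGTG in 5, from 3 genes, against 16.6% of all windows for the latter. CAGCTG occurred in 1 *Pkm* window (13.0% of all windows) and CACGTG in 1 *Pfkm* window (6.02%). None held the MEF2 motif, which was present in 0.508% of all windows.

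Among the aldolases, *Aldoa* (chr7:126795234-126800751), the muscle form, was highest in tibialis anterior at 4373 FPKM. It followed at 553 FPKM in heart, 473 in brown adipose, 469 in brain, 386 in white adipose, 179 in small intestine and 35.4 in liver. Tibialis anterior thus stood 7.90 times above heart, the next tissue, while heart, brown adipose and brain lay close together; with 1 library a tissue no neighbours in these orders can be tested. *Aldoc* (chr11:78322968-78327781), the brain form, was at 230 FPKM in brain and at 6.89 in liver, 5.03 in small intestine, 0.982 in brown adipose and 0.367 in white adipose, and was listed at 0 in heart and tibialis anterior. *Aldoc* made up 32.9% of the 2-gene total in brain and 0 to 16.3% elsewhere.

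Phosphofructokinase divided 3 ways. *Pfkm* (chr15:98092589-98132451) was at 1039 FPKM in tibialis anterior, 204 in heart, 97.8 in brain, 31.5 in brown adipose, 10.9 in white adipose, 4.96 in small intestine and 3.88 in liver. *Pfkl* (chr10:77986947-78010083) was highest in brown adipose at 80.1 FPKM, then 41.3 in brain, 26.4 in white adipose, 21.1 in heart, 16.2 in small intestine, 8.48 in liver and 2.22 in tibialis anterior. *Pfkp* (chr13:6579768-6648777) was at 81.1 FPKM in small intestine, 68.0 in brain, 23.5 in white adipose, 13.3 in brown adipose, 12.9 in heart, 0.845 in liver and 0.822 in tibialis anterior. As shares of the 3-gene total, *Pfkm* took 99.7% in tibialis anterior and 85.7% in heart, *Pfkl* took 64.2% in liver and 64.1% in brown adipose, and *Pfkp* took 79.3% in small intestine. Brain held all 3 in quantity, with 47.2% *Pfkm*, 32.8% *Pfkp* and 19.9% *Pfkl*. White adipose was split between *Pfkl* at 43.5% and *Pfkp* at 38.6%. Liver, whose name *Pfkl* carries, had the lowest phosphofructokinase total of the 7, 13.2 FPKM against 1042 in tibialis anterior. The order of *Pfkp* in small intestine and brain depended on scaling: the deposited values put small intestine 1.19 times higher, whereas rescaling each library to a common total (TPM) put brain ahead, at 173 against 161. The lead of brown adipose over brain in *Pfkl* also shrank with TPM, to 113 against 105.

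Enolase was divided between muscle, brain and the other tissues. *Eno3* was at 2083 FPKM in tibialis anterior and 411 in heart, against 11.5 in brown adipose, 10.3 in white adipose, 6.07 in brain, 2.63 in small intestine and 1.36 in liver. *Eno2* was at 192 FPKM in brain and at no more than 2.05, the white adipose value, in any other tissue. *Eno1*, the widespread form, was at 299.8 FPKM in brown adipose, 198 in small intestine, 167 in brain, 108 in liver, 105 in white adipose, 37.6 in heart and 22.0 in tibialis anterior; after rescaling to a common total, brain (423) and brown adipose (421) were level at the top. *Eno3* thus led in the muscle tissues and *Eno1* in liver, gut and both fats, though their full tissue orders were not reversed. *Eno3* was 98.9% of the 3-gene total in tibialis anterior and 91.5% in heart, where *Eno1* was 1.04% and 8.38%. *Eno1* was 89.5 to 98.4% in liver, gut and both fats. In brain *Eno2* made up 52.6% and *Eno1* 45.7%. *Eno4*, a distant relative, did not exceed 2.51 FPKM (brain). *Eno1b* stayed between 0.232 and 1.67% of the *Eno1* level in the 7 tissues.

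*Pkm* (chr9:59656368-59679375) was at 934 FPKM in tibialis anterior, 323 in brown adipose, 304 in brain, 293 in heart, 249 in small intestine, 125 in white adipose and 5.53 in liver. Its counterpart *Pklr*, the liver and red-cell pyruvate kinase, was at 134 FPKM in liver and 88.0 in small intestine and at most 0.0636 elsewhere, so *Pkm* was 3.96% of pyruvate kinase FPKM in liver, 73.9% in small intestine and at least 99.9% in the other 5 tissues.

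**Figure D1:**
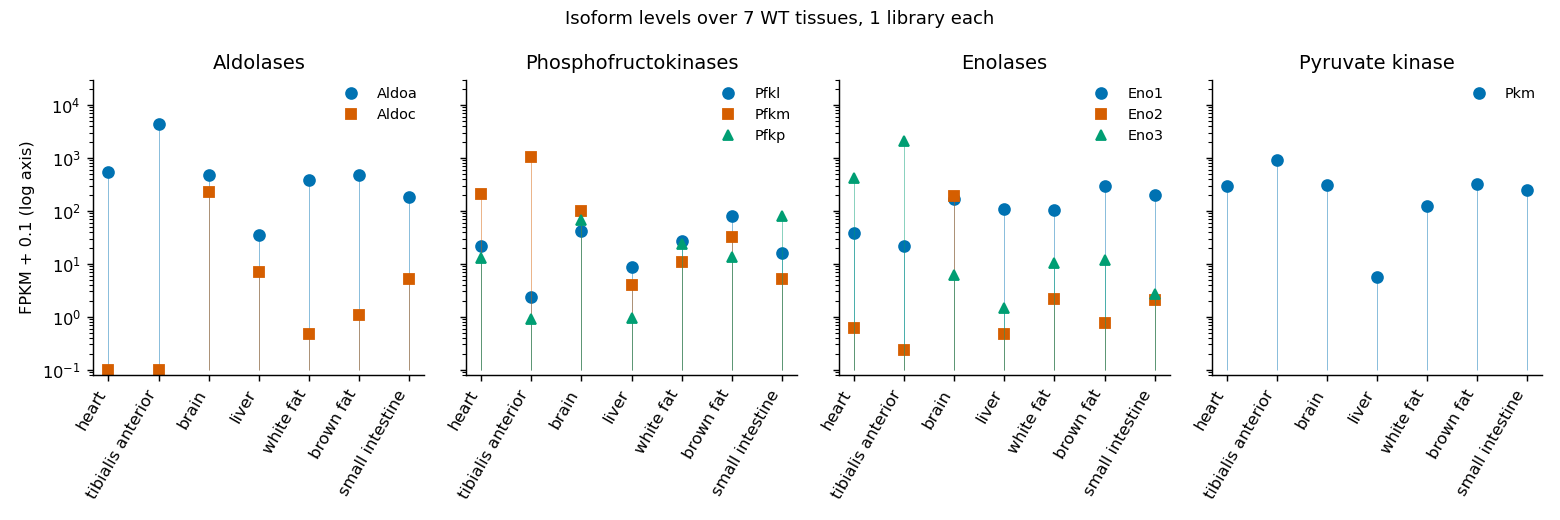
FPKM plus 0.1 (log axis) of each isoform in the 7 WT tissue libraries, 1 point a library, with thin lines down to the axis and 1 panel a family. *Eno3* and *Pfkm* peak in tibialis anterior and heart, *Eno2* and *Aldoc* in brain, and *Eno1* is lowest in tibialis anterior at 22.0 FPKM.

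By the deposited values, 4 of the 9 members were highest in tibialis anterior (*Aldoa*, *Pfkm*, *Eno3*, *Pkm*), 2 in brain (*Aldoc*, *Eno2*), 2 in brown adipose (*Pfkl*, *Eno1*) and 1 in small intestine (*Pfkp*). After rescaling to TPM, *Pfkp* and, narrowly, *Eno1* were highest in brain. Across the 7 libraries on the log2(FPKM + 1) scale, *Eno3* and *Pfkm* had a Pearson r of 0.90, *Aldoa* and *Pkm* 0.89, *Aldoc* and *Eno2* 0.90, and *Eno3* and *Eno1* -0.86. These values describe 7 single libraries that differ in composition, and a tissue far from the rest carries much of each. Of 9887 protein-coding genes reaching 10 FPKM in some tissue, the one most like *Eno3* was *Pgam2* (r = 0.99), the muscle phosphoglycerate mutase, whose reaction comes just before enolase. Most like *Eno1* was *Pgam1* (r = 0.98), the other phosphoglycerate mutase. For *Eno2* it was *Rtn1* (r = 1.00), for *Aldoc* *Rnd2* (0.99), for *Pfkm* *Dennd4b* (0.98) followed by *Ak1* (0.98), for *Pfkp* *Stx7* (0.98), for *Aldoa* *Smarcd3* (0.96), for *Pkm* *Pstk* (0.96) and for *Pfkl* *Ccnd3* (0.93).

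The libraries of the 2 cold-exposed fats held different isoform mixtures. In WT iWAT libraries 1, 2 and 3, *Pfkl* made up 53.6, 55.2 and 48.7% of phosphofructokinase FPKM, against 79.2, 82.8 and 82.8% in WT BAT. *Pfkp* made up 36.9, 27.2 and 18.5% in iWAT against 16.4, 11.1 and 11.7% in BAT, and *Pfkm* 9.56, 17.6 and 32.8% against 4.45, 6.12 and 5.55%. All 3 shares were apart between the tissues with no overlap, by 29.1 percentage points for *Pfkl*, -14.5 for *Pfkp* and -14.6 for *Pfkm* (BAT minus iWAT). Leaving out iWAT WT library 3, the *Pfkm* difference was -8.19 points. In the MCK-Musclin libraries the corresponding differences were 27.5, -20.7 and -6.76 points, again without overlap. Each comparison gave p = 0.1 in a two-sided exact permutation test, the smallest that 3 against 3 allows, so it cannot pass 0.05; 8 shares were compared per genotype, and shares of a family are tied to each other. A share within a library does not depend on how the separately normalized tables were scaled, but RNA of the 2 fats was extracted by different methods, which cannot be told apart from tissue here. Cell content also differed. The sum of 6 B cell markers was 135 to 387 FPKM in iWAT and 0.396 to 1.06 in BAT. That of 6 macrophage markers was 513 to 782 and 36.9 to 117 FPKM. The part of cell content in the isoform shares was not tested.

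*Eno1* dominated enolase in both fats. Its share was 96.4, 91.1 and 78.2% in the 3 WT iWAT libraries and 98.6, 97.9 and 98.7% in WT BAT. *Eno2* was a small part that nonetheless stood apart, at 1.39, 1.32 and 0.780% in WT iWAT against 0.0281, 0.0498 and 0.0679% in WT BAT; the MCK-Musclin libraries gave means of 1.47% ± 0.0987 and 0.0892% ± 0.0634 (SD, n = 3 each). *Eno3* took 2.18, 7.57 and 21.0% in WT iWAT and 1.41, 2.04 and 1.21% in WT BAT, which did not overlap and whose means differed by -8.70 points, or -3.32 without iWAT WT library 3. Its MCK-Musclin shares (3.38 to 5.16% and 1.88 to 3.81%) overlapped, except when iWAT library 1 or BAT library 1 was left out. *Aldoc* was under 0.2% of the 2-gene total in all 12 cold libraries.

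In cold BAT *Eno1b* was far higher than in the other libraries. It was at 68.3, 65.3 and 59.5 FPKM in the WT and 74.2, 71.8 and 65.7 FPKM in the MCK-Musclin libraries, which is 7.34 to 9.20% of *Eno1*. In cold iWAT it was at 1.15 to 2.23 FPKM, 0.643 to 1.31% of *Eno1*, and in the brown adipose library of the tissue set at 3.46 FPKM, 1.15% of *Eno1*. The direction of the *Eno1* share depended on whether *Eno1b* and *Eno4* were counted in the total. Without them WT BAT was 9.81 points above WT iWAT, and 4.63 points above it without iWAT WT library 3. With them the WT groups overlapped, the difference being 2.87 points, or -2.26 without that library, and in MCK-Musclin it went from 3.06 to -3.58 points, with no overlap in either case. As *Eno1* and *Eno1b* share most of their sequence, the division of reads between them was not tested.

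**Figure D2:**
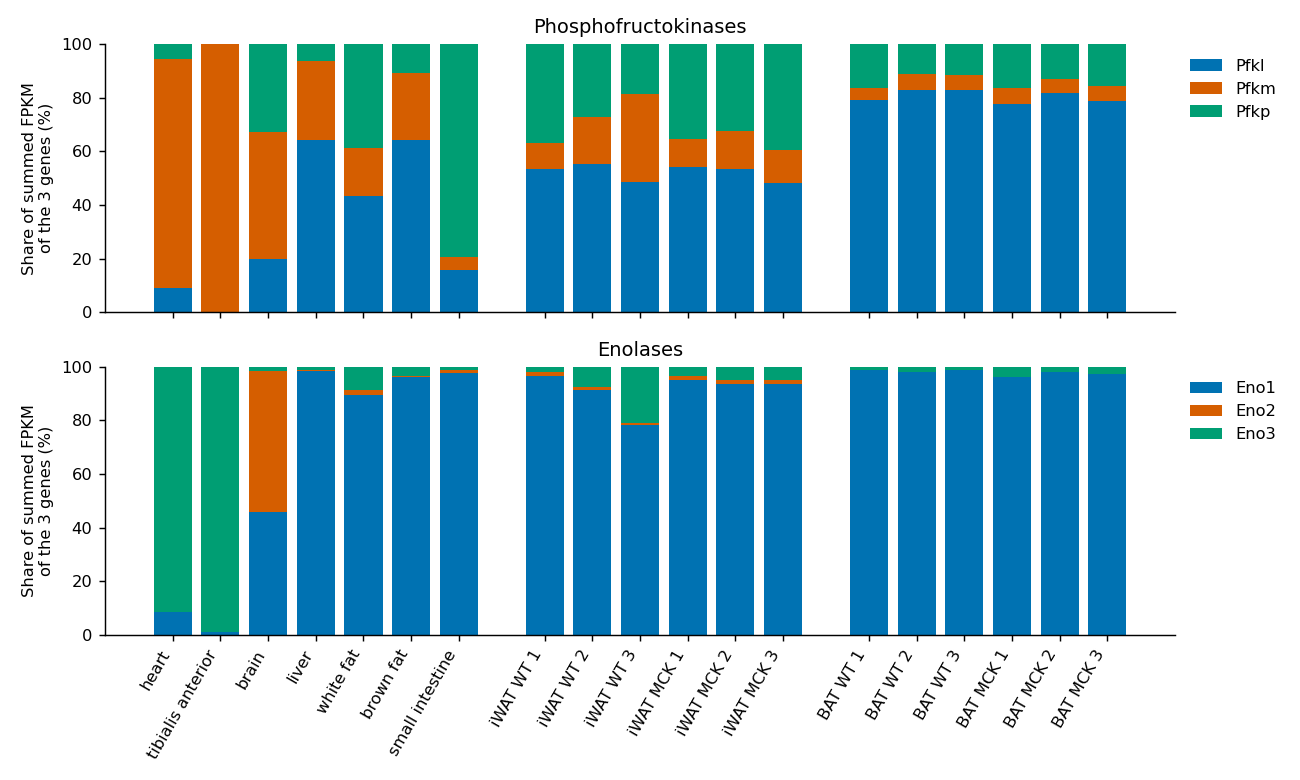
Share (%) of each phosphofructokinase (top) and enolase (bottom) in the summed FPKM of its 3 genes, 1 stacked bar a library: 7 WT tissues, then cold iWAT and cold BAT with 3 WT and 3 MCK-Musclin (MCK) libraries each. *Pfkl* fills 77.6 to 82.8% of the BAT bars and 48.3 to 55.2% of the iWAT bars, and iWAT WT library 3 has the largest *Eno3* part of the 12 cold libraries, 21.0%.

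The central comparison of the cold set is genotype, MCK-Musclin against WT. *Ostn* RNA was also read in MCK-Musclin BAT itself, at 30.3 to 37.9 FPKM, and its source there was not tested. Differences are MCK-Musclin minus WT on log2(FPKM + 1), from limma over all genes with a mean of at least 1 FPKM, with Benjamini-Hochberg adjustment over all of them. In bulk tissue, fewer cells of a type and less RNA per cell cannot be told apart. In iWAT 8 of 9 members were tested, *Aldoc* being below the filter, and none passed an adjusted p of 0.05; neither did any of the 12197 genes (0%), although 2012 had an unadjusted p under 0.05. At the unadjusted threshold 2 of 8 members were lower and none higher, against 3.44% and 13.1% of all genes.

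Those 2 were the most abundant aldolase and the main phosphofructokinase of fat. *Aldoa* was at 526, 473 and 488 FPKM in WT iWAT and at 428, 375 and 305 FPKM in MCK-Musclin. Every MCK-Musclin library lay under every WT library, with means of 496 ± 27.5 and 369 ± 61.9 (SD, n = 3 each), and the log2 difference was -0.44 (SE 0.14, unadjusted p = 0.0168, adjusted p = 0.210 in limma). Without WT library 1 the unadjusted p in limma was 0.0565 (-0.39). *Pfkl* was at 39.5, 35.6 and 45.4 FPKM in WT and at 33.4, 26.3 and 26.1 FPKM in MCK-Musclin. Its groups did not overlap either, and it differed by -0.48 (SE 0.14, unadjusted p = 0.00921, adjusted p = 0.178 in limma). Such separation was seen downward in 5.44% and upward in 17.9% of all genes. After centring each library on general adipocyte markers, which moved the median of all genes from 0.06 to 0.28, the differences of *Aldoa* and *Pfkl* were -0.22 and -0.26 (unadjusted p = 0.211 and 0.169 in limma). In limma, no member met the stricter pair of cutoffs that the study used for iWAT (unadjusted p under 0.05 and a log2 difference beyond 0.5). Of all genes, 0.902% met them in the lower and 5.04% in the higher direction. The study had applied its cutoffs to fold changes and p-values from DESeq2, a different test, so its own calls can differ.

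The other phosphofructokinases differed in how stable they were. *Pfkm* was at 7.04, 11.3 and 30.5 FPKM in WT and at 6.44, 7.08 and 6.63 FPKM in MCK-Musclin, a difference of -0.92 (SE 0.44, unadjusted p = 0.0724, adjusted p = 0.344 in limma). Most of that gap came from WT library 3, without which it was -0.37, while without WT library 1 it was -1.35 (unadjusted p = 0.00877 in limma). *Pfkp* was at 27.2, 17.6 and 17.2 FPKM in WT and 21.8, 15.9 and 21.3 in MCK-Musclin, with groups that overlapped and a difference of -0.05 (SE 0.20).

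Among enolases, *Eno1* was at 217, 160 and 241 FPKM in WT and 178, 200 and 160 FPKM in MCK-Musclin iWAT, a difference of -0.18 (SE 0.17) with overlapping groups; without WT library 2 it was -0.36 (unadjusted p = 0.0361 in limma). *Eno2* was at 3.12, 2.31 and 2.41 FPKM against 2.85, 3.28 and 2.32 (0.08, SE 0.15). *Eno3* was at 4.90, 13.3 and 64.9 FPKM in WT and 6.35, 10.5 and 8.82 FPKM in MCK-Musclin. Its mean difference of -0.91 had an SE of 0.77. Dropping WT library 3 gave 0.034 and dropping WT library 1 gave -1.71 (unadjusted p = 0.0274 in limma). *Pkm* was at 150, 118 and 132 FPKM in WT and 121, 111 and 101 FPKM in MCK-Musclin, a difference of -0.26 (SE 0.12, unadjusted p = 0.0722, adjusted p = 0.344 in limma), and -0.34 without WT library 2 (unadjusted p = 0.0315). *Aldoc* remained at 0.259 to 0.774 FPKM in all 6 libraries. Altogether 7 of 8 tested members had a difference below 0, as had 38.7% of all genes. The median of the 8 was -0.35, where the median of all genes was 0.06. Centred on adipocyte markers, *Pfkp* (0.16) and *Eno1* (0.030) turned above 0 and 5 of 8 stayed below.

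In BAT 7 members were tested, *Aldoc* and *Eno2* being below the filter, and none passed an adjusted p of 0.05; 1 of 10893 genes did (0.00918%), and 533 had an unadjusted p under 0.05. *Eno3* was the 1 member with an unadjusted p under 0.05, in the higher direction, where 2.18% of all genes stood, against 2.71% in the lower direction. It was at 11.1, 14.8 and 9.91 FPKM in WT and at 33.7, 16.0 and 21.4 FPKM in MCK-Musclin. Every MCK-Musclin library was thus above every WT library, which held for 4.38% of all genes, while 5.63% were separated downward. The difference was 0.89 (SE 0.26, unadjusted p = 0.0107, adjusted p = 0.929 in limma). *Eno3* was also the 1 member past the study's cutoffs for BAT (unadjusted p under 0.05, log2 difference over 0.3), applied here to limma and not to DESeq2. Of all genes, 1.85% met them upward and 2.15% downward.

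The remaining BAT members had smaller differences, from 0.08 (*Aldoa*) to 0.37 (*Pfkp*). *Aldoa* was at 1967, 1801 and 1663 FPKM in WT and 1874, 1922 and 1939 in MCK-Musclin (0.08, SE 0.08). *Pfkl* was at 299, 278 and 272 FPKM against 308, 319 and 299 (0.12, SE 0.08), where the lowest MCK-Musclin library lay just under the highest WT one. *Pkm* was at 902, 849 and 781 FPKM against 1040, 958 and 881 (0.18, SE 0.09, unadjusted p = 0.0862, adjusted p = 0.968 in limma). These 3 genes thus differed by less than 0.2 on the log2 scale. *Eno1* was at 710 to 811 FPKM in WT and 763 to 850 in MCK-Musclin, *Pfkm* at 16.8 to 20.6 and 20.3 to 24.1, and *Pfkp* at 37.3 to 62.0 and 50.1 to 64.6, all with overlap. For *Pfkp*, WT library 1 made the difference smaller: it was 0.37 (SE 0.20) with that library and 0.60 without it (unadjusted p = 0.00303 in limma). *Pfkm* (0.22) and *Pkm* had unadjusted p of 0.0488 and 0.045 in limma without WT library 2 and MCK-Musclin library 3, respectively. Every one of the 7 differences was above 0, where 52.3% of all genes lay below 0. The median of the 7 was 0.18 against -0.01 over all genes.

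**Figure D3:**
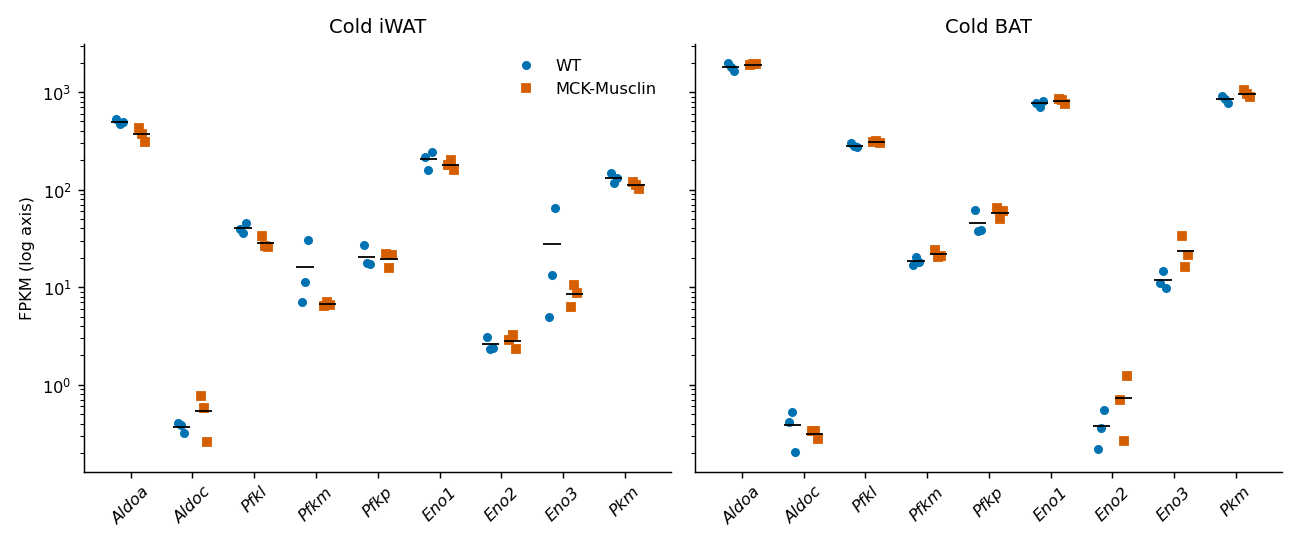
FPKM (log axis) of the 9 isoforms in cold iWAT (left) and cold BAT (right), with WT (circles) and MCK-Musclin (squares) libraries, 3 each, and a black line at the group mean. In iWAT the *Aldoa* and *Pfkl* squares lie below the circles, and in BAT the *Eno3* squares (16.0 to 33.7) lie above the circles (9.91 to 14.8).

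*Eno3* in BAT, and in part in iWAT, moved with markers of fast skeletal muscle. The 15-gene marker sum was 615, 860 and 541 FPKM in WT BAT and 1972, 899 and 1293 FPKM in MCK-Musclin BAT, with all 15 genes detected in each library, and *Eno3* was 1.65 to 1.83% of that sum in all 6, near the 1.41% of tibialis anterior. WT library 2 and MCK-Musclin library 2, with sums of 860 and 899, had nearly equal *Eno3* levels of 14.8 and 16.0 FPKM. In iWAT the sum ran from 11.7 through 871 to 4906 FPKM in WT and was 12.3, 169 and 200 FPKM in MCK-Musclin. *Eno3* stood at 1.52 and 1.32% of it in WT libraries 2 and 3, but at 6.20 and 4.41% in MCK-Musclin libraries 2 and 3 (10.5 and 8.82 FPKM). The libraries with the lowest sums, 11.7 and 12.3, still had 4.90 and 6.35 FPKM of *Eno3*, 42.0 and 51.6% of the sum. *Eno3* thus kept near the muscle proportion in BAT and in 2 of the 6 iWAT libraries. *Pfkm* was also highest in iWAT WT library 3 (30.5 FPKM), where it was 0.622% of the sum against 0.705% in tibialis anterior. Unlike *Eno3*, it kept no steady proportion in BAT, at 1.22 to 3.37% of the sum, and it was 1.30 to 60.4% in the other iWAT libraries. *Pgam2*, like *Eno3*, was higher in every MCK-Musclin BAT library than in any WT one. It was at 14.0, 20.7 and 16.0 FPKM in WT BAT and 52.5, 23.4 and 28.5 FPKM in MCK-Musclin BAT. The part of muscle RNA in these differences was not tested. *Aldoa* was 2.97% of the sum in tibialis anterior. In WT iWAT it was at 526 FPKM in the library with a sum of 11.7, at 473 with 871 and at 488 with 4906. The muscle part of *Aldoa* was not tested either.

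**Figure D4:**
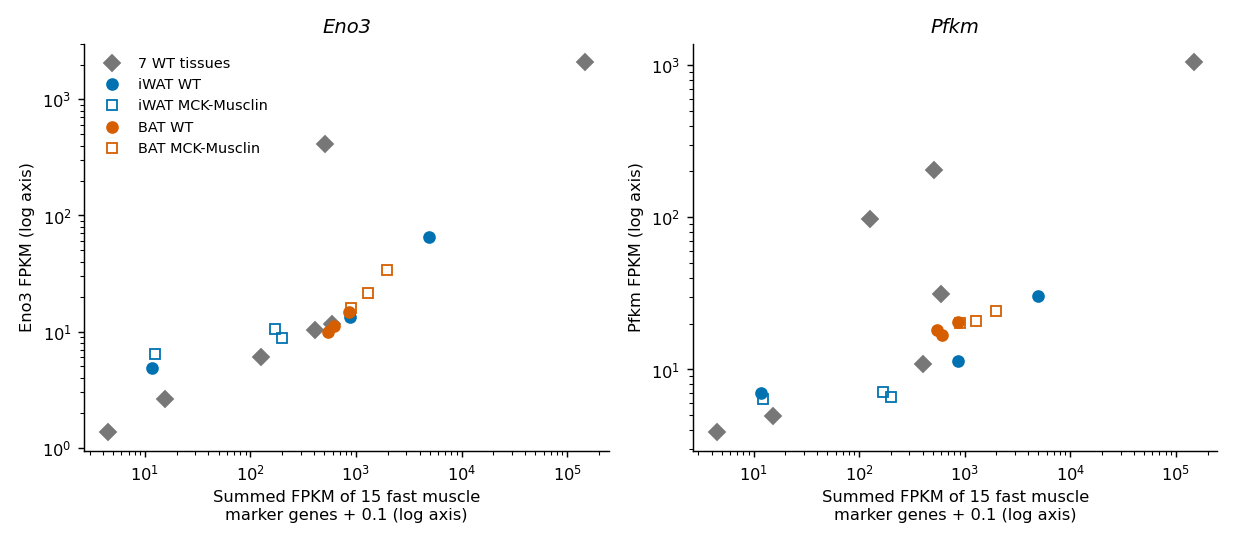
*Eno3* (left) and *Pfkm* (right) FPKM against the summed FPKM of 15 fast skeletal muscle marker genes plus 0.1, both on log axes, 1 point a library: 7 WT tissues (diamonds), WT (circles) and MCK-Musclin (open squares) in cold iWAT (blue) and cold BAT (orange). *Eno3* is 1.65 to 1.83% of the sum in the 6 BAT libraries, iWAT WT library 3 is the rightmost cold library at a sum of 4906, and heart has 411 FPKM of *Eno3* at a sum of 510.

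The genotype differences of the 2 fats were then set against each other in 1 model over the 12 libraries, as iWAT difference minus BAT difference. All 8 members tested came out below 0, as did 39.9% of all 11645 genes. The median of the 8 was -0.48, where all genes had 0.06. At an unadjusted p under 0.05 were 4 of 8, all lower, against 2.75% of all genes lower and 9.03% higher. *Pfkl* differed by -0.60 (SE 0.16, unadjusted p = 0.00298, adjusted p = 0.278 in limma), *Aldoa* by -0.52 (SE 0.18, adjusted p = 0.323) and *Pkm* by -0.44 (SE 0.16, adjusted p = 0.344). *Pfkm* differed by -1.15 (SE 0.50, adjusted p = 0.399), and by -0.59 without iWAT WT library 3; its unadjusted p in limma was 0.0504 to 0.0789 when any 1 of the 9 libraries other than iWAT WT was left out. For *Pkm* it was 0.0519 to 0.0592 without iWAT WT library 1, iWAT MCK-Musclin library 3 or BAT WT library 3. After centring on adipocyte markers, *Pfkl* alone kept an unadjusted p under 0.05, with *Pfkm* at 0.0536, *Aldoa* at 0.0897 and *Pkm* at 0.128. For *Eno3* the value was -1.80 (SE 0.91, unadjusted p = 0.0712 in limma), and -2.59 without iWAT WT library 1 (unadjusted p = 0.00335). None passed the adjusted threshold, which 1 gene in the whole table did (0.00859%). The tables had been normalized separately, so this model compares differences and not levels.

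**Figure D5:**
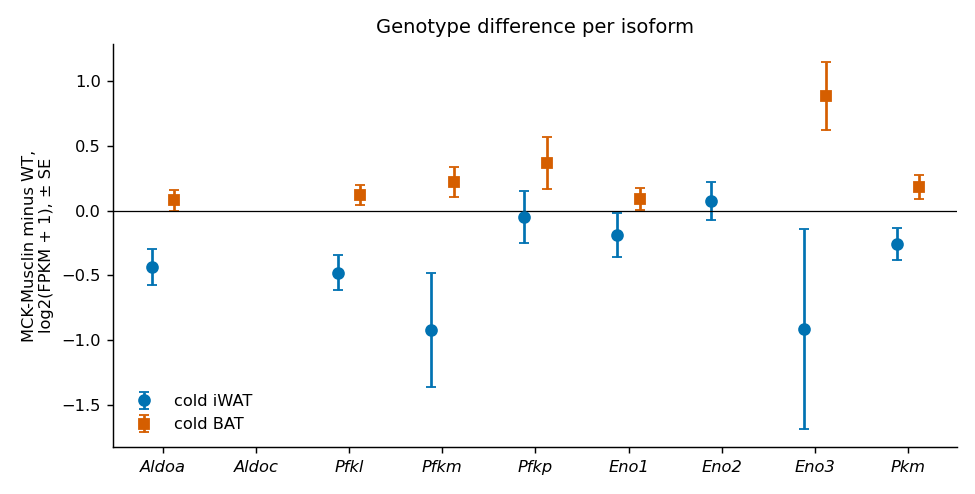
MCK-Musclin minus WT on the log2(FPKM + 1) scale, ± SE from limma, in cold iWAT (circles) and cold BAT (squares); isoforms below the filter have no point. All 7 BAT points lie above 0 and 7 of 8 iWAT points lie below it, the exception being *Eno2* at 0.08. Of all genes tested, 52.3% in BAT and 38.7% in iWAT lay below 0.

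Between genotypes the isoform mixtures mostly overlapped. In iWAT the groups overlapped for 6 of 8 shares, *Pfkl* averaging 52.5% ± 3.38 in WT and 51.9% ± 3.19 in MCK-Musclin (SD, n = 3 each; exact permutation p = 0.7). The 2 that did not overlap were the complementary *Aldoa* and *Aldoc* shares, whose means were 0.0652 points apart; without WT library 1, 7 of 8 did not overlap. In BAT all 8 overlapped. *Pfkl* averaged 81.6% ± 2.10 and 79.4% ± 2.22 (exact permutation p = 0.2), and *Eno3* 1.55% ± 0.437 and 2.80% ± 0.964 (exact permutation p = 0.2), all 3 libraries a group included. Leaving out MCK-Musclin library 2, 4 of the 8 did not overlap, and leaving out any 1 of the WT libraries, 2 did not. Leaving out a library can only keep or raise such a number.

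Other genes of glucose uptake and glycolysis were taken from a list of 27 of which 20 were tested there. None passed the adjusted threshold; 7 were lower and 1 higher at an unadjusted p under 0.05, and 14 of 20 lay below 0 (median -0.25). Over all genes tested, 3.44% were lower and 13.1% higher at that threshold, and 38.7% lay below 0. *Hk2*, which phosphorylates glucose in insulin-sensitive tissues, had the largest shift of the 8 at that threshold: it was at 38.7, 19.4 and 32.0 FPKM in WT and 14.7, 15.2 and 13.0 in MCK-Musclin (-0.97, SE 0.23, adjusted p = 0.149 in limma). *Pgam1* was at 38.0 to 39.9 FPKM in WT and 27.1 to 32.8 in MCK-Musclin. *Pgam2*, with a larger mean difference of -2.05, had an SE of 1.31 and stood at 0.447, 10.8 and 84.7 FPKM in WT against 0.395, 2.88 and 2.83. *Pgk1*, *Ldha*, *Ldhb*, *Pfkfb1* and the glucose transporter gene *Slc2a4* were the others on the lower side. The 1 on the higher side was *Hk1*, the widespread hexokinase, at 8.91 to 10.6 FPKM in WT and 13.7 to 15.5 in MCK-Musclin. In BAT 18 were tested and *Pgam2* alone had an unadjusted p under 0.05, on the higher side (0.93, SE 0.29, adjusted p = 0.968 in limma), where 2.18% of all genes stood. Between the tissues *Hk2*, *Pgam1* and *Pgk1* were lower at that threshold, as were 2.75% of all genes.

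Of 14 regulators of the pathway 13 were tested in each fat, and none passed the adjusted threshold. At an unadjusted p under 0.05 in limma, 3 were lower and 1 higher in iWAT, against 3.44% and 13.1% of all genes. In iWAT *Mlxipl*, encoding the glucose-responsive factor ChREBP, was at 35.3, 23.3 and 25.5 FPKM in WT and 15.5, 18.7 and 20.5 in MCK-Musclin (-0.58, SE 0.17, adjusted p = 0.190 in limma). *Ppargc1a*, the mitochondrial co-activator, was at 6.51 to 7.23 FPKM against 6.34, 2.96 and 2.01, and *Epas1*, encoding HIF-2 alpha, differed by -0.28 (SE 0.08). *Myc* was on the other side, at 0.39 (SE 0.10). In BAT *Arnt* alone reached an unadjusted p under 0.05 (0.34, SE 0.12), on the higher side, where 2.18% of all genes stood. The summed level of 9 brown and beige adipocyte markers was also lower in 2 of the 3 MCK-Musclin iWAT libraries, at 579, 910 and 1076 FPKM in WT and 650, 228 and 119 FPKM in MCK-Musclin, and that of 10 general adipocyte markers was 15689 to 16728 against 14110 to 15854 FPKM. Immune cell markers were on the other side in iWAT: 6 B cell markers summed to 259, 159 and 135 FPKM in WT and 292, 387 and 380 FPKM in MCK-Musclin, and 6 T cell markers to 137, 86.9 and 115 FPKM against 165, 214 and 177 FPKM, neither with overlap. Those of 6 macrophage markers were 513 to 568 and 550 to 782 FPKM, which overlapped. The part of any of these lists in the isoform differences was not tested.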

How the data were processed

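Per the labels and the study's methods, poly(A) RNA was sequenced; the authors filtered reads with fastp, aligned them to GRCm38 with HISAT2 2.1.0 and deposited FPKM per gene, with no strand used. The study's methods name StringTie for FPKM, whereas the submitters' processing notes list Cuffdiff 2.1.137 and Bowtie2 2.4.1. Which tool divided reads shared by near-identical genes such as *Eno1* and *Eno1b* is thus unsettled. Read counts were not used here, so FPKM values were tested as log2(FPKM + 1), and absolute depth is unknown. The iWAT table also holds the authors' own fold changes, p-values and group means, which were not used. From each of the 7-tissue and BAT files 287 repeated rows were dropped.

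Genes with a mean of at least 1 FPKM were fitted with limma 3.58.1 (trended empirical Bayes) in R 4.3.3, per tissue and, for the difference between tissues, over 12 libraries; p-values were Benjamini-Hochberg adjusted over all genes. The fit was tested on simulated data. Shares were percent of a family's summed FPKM in a library, compared by exact permutation tests (scipy 1.17.1). Alternatives covered pseudocounts 0.1 and 0.01, filters, scalings, variance settings, a replicate block and leaving out each library. Named genes were the 9 members, their paralogs (1 gene is not reported here), listed pathway genes past a call, and for each member the genes most like it over 7 tissues. The members and lists were chosen with earlier results of these data known. Gene positions come from GENCODE vM21, promoter windows from RefSeq.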

Additional observations from a re-analysis of the deposited data

Results flagged for a closer look

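For 4 members the genotype difference in iWAT and that in BAT were apart at an unadjusted p under 0.05 in the limma model over 12 libraries, all on the lower side, where 2.75% of all genes stood (9.03% on the higher), and no member was at an adjusted p under 0.05. The iWAT minus BAT values were -0.52 for *Aldoa* (adjusted p = 0.323), -0.60 for *Pfkl* (adjusted p = 0.278), -1.15 for *Pfkm* (adjusted p = 0.399) and -0.44 for *Pkm* (adjusted p = 0.344). Over 22 alternatives *Pfkl* ranged from -0.72 to -0.51 and *Aldoa* from -0.63 to -0.39, both below 0 in each. *Pfkm* ranged from -1.58 to -0.59 and had an unadjusted p under 0.05 in 12 of 22. After centring on general adipocyte markers *Pfkl* alone of the 4 kept an unadjusted p under 0.05.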

How the results depend on the processing

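No member had an adjusted p under 0.05 under any alternative; the lowest values in limma were 0.145 in iWAT, 0.669 in BAT and 0.0949 for the difference between tissues. The number of members with an unadjusted p under 0.05 in iWAT was 2, and it was 0 after centring on general adipocyte markers and 2 to 4 when leaving out 1 library at a time. In BAT it was 1, against 2 with that centring, 2 with a replicate block and 1 to 2 when leaving out a library; for the difference between tissues it was 4, against 1 with the centring and 2 to 5 when leaving out a library. The shares without overlap between genotypes numbered 2 in iWAT (2 to 7 when leaving out a library, the most without WT library 1) and 0 in BAT (0 to 4). Leaving out a library can only keep or raise these numbers. With the centring the iWAT differences of *Pfkp* and *Eno1* were 0.16 and 0.030. Leaving out a library, those of *Pfkp* ran from -0.16 to 0.15, of *Eno2* from -0.0092 to 0.17 and of *Eno3* from -1.71 to 0.034. The cause was not tested. For *Pfkp* the log2 ratio of small intestine to brain, 0.26 as deposited, was -0.10 after rescaling to TPM and -0.21 after rescaling over nuclear-genome genes, a scaling chosen after seeing the data. *Aldoa*, *Pfkm*, *Eno3* and *Pkm* were highest in tibialis anterior in all 4 scalings. *Pfkl* was highest in brown adipose in all 4, but by 1.07 (TPM) to 2.49 times the brain value. *Eno1* was highest there except with TPM, where brain was level with it (423 against 421). The 8 shares apart between WT BAT and WT iWAT could only stay apart without any 1 library, because leaving out a value cannot make separate groups overlap. That alternative, also chosen after seeing the data, is therefore no test of the separation. Libraries with the same replicate number did not deviate together throughout (correlations of 0.235, 0.061 and 0.107 in iWAT and -0.095, -0.005 and 0.009 in BAT), so the number is taken as a name only, although each WT library of iWAT correlated best with its own number and none of BAT did; the block moved *Pfkm* in iWAT (p = 0.0482) and *Pfkp* in BAT (p = 0.0377) and between tissues (p = 0.0083, all unadjusted, limma) under 0.05. *Aldoc* in both fats and *Eno2* in BAT lay below the filter and were not tested, and 3 libraries a group cannot pass 0.05 in a permutation test.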

Other observations

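*Gapdh*, whose enzyme comes between aldolase and enolase in glycolysis, had an uneven level in cold BAT that the members did not share. It was at 34.2, 529 and 394 FPKM in the WT and at 37.5, 32.0 and 380 FPKM in the MCK-Musclin libraries, so 3 libraries stood at 32.0 to 37.5 and 3 at 380 to 529, with both kinds in each genotype, while *Pkm* stayed within 781 to 1040 FPKM and *Aldoa* within 1663 to 1967 FPKM. In cold iWAT *Gapdh* was at 206 to 325 FPKM. The pattern was noticed after the values were seen.

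The lower *Hk2* and higher *Hk1* in MCK-Musclin iWAT meant that *Hk1* exceeded *Hk2* in MCK-Musclin libraries 2 and 3, at 15.5 against 15.2 and 15.3 against 13.0 FPKM, and in none of the WT libraries, where *Hk2* was at 19.4 to 38.7 and *Hk1* at 8.91 to 10.6 FPKM.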
